A study of Mus musculus with 24 samples.

Results

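The 3403 brain endothelial cells described here were picked by their own transcripts from 103715 single cells of mouse motor cortex and dorsal striatum. A cell counted as a member if it held at least 2 UMIs of Cldn5, the main claudin of blood-brain barrier tight junctions, and at least 2 UMIs of Flt1 and Pecam1 together. Flt1 is a VEGF receptor and Pecam1 an adhesion molecule of the vessel lining. A member also held at most 2 UMIs of the mural cell genes Rgs5 and Vtn together and none of Cx3cr1, a microglial receptor gene. A UMI is a molecular tag, so that the counts are of captured RNA molecules rather than reads. Only cells with at least 1000 UMIs, at least 500 detected genes and at most 20% mitochondrial UMIs were considered.

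The study asked how cells of motor regions change their transcripts while mice learn a forelimb reach. Motor cortex came from Fos-CreER::Ai9 mice and dorsal striatum from Arc-CreER::Ai9 mice, so that region and driver line cannot be told apart in any comparison below. In these mice a neuron that is active while 4-hydroxytamoxifen (4-OHT) is present can recombine the Ai9 reporter and then makes tdTomato. Each region had 3 groups: controls that received 4-OHT without training, mice trained for 2 days (early) and mice trained for 8 days (late), all with tissue taken 3 days after labelling. Each pool joined a male and a female mouse by the labels, and each group had 2 pools, 12 in all. The hemispheres of a pool gave separate libraries, named contralateral and ipsilateral to the reaching limb in trained mice and right and left in controls. One of the 24 libraries, the right one of the first striatal control pool, is not analysed here for its counts, which left 23, and only its list of barcodes entered the library classes given below. Brains were perfused with artificial cerebrospinal fluid, digested for 1 h at 37 °C with papain at 20 U/ml, and dead cells were removed. Where nothing else is said, values are over pools, and the p-values measure the spread between pools of mice.

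Brain endothelial cells line the vessels of the brain and form its barrier. They seal the gaps between neighbouring cells with tight junctions, take up glucose, amino acids and hormones through carriers, return many drugs to the blood through efflux pumps and carry out little transcytosis. Wnt signals from the surrounding tissue keep this barrier state, and flow, oxygen and signals of active neurons act on the same cells. Their identity shifts along the vessel from artery through capillary to vein, with graded rather than sharply separate expression.

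Members numbered 25 to 445 per library (median 141) and 53 to 750 per pool. Over libraries, members had median depths of 1372 to 2424 UMIs and 788 to 1190 genes, with 1.17% to 4.86% mitochondrial UMIs. Summed UMIs of members ranged from 174557 to 2139740 per pool, and the shallowest pool was motor cortex control replicate 1 with 53 cells. Of the member barcodes, 1 also occurred as a member of another library and 54 occurred as any passing cell of another library. Libraries fell into 2 classes by the barcodes they shared. Class A held replicate 1 of the control and the late group in each region (4 pools), class B the other 8, and no early pool was in class A. The labels name 10x kit versions 2 and 3 without saying which library had which, so that calling these classes kit classes, as below, is an inference.

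Several libraries stood apart or went against their labels. Each pool was labelled as a male and a female mouse, and in 19 libraries 25.5% to 53.9% of members held an Xist UMI and 10.1% to 23.2% a UMI of a Y-linked gene. In motor cortex control replicate 1, 0 of 53 members held Xist, while 10 held a Y-linked UMI. By the counting of cells alone, 0 of 53 allows a share of up to 5.66% of members with a captured Xist UMI, which is not a share of female cells. In motor cortex control replicate 2, the right library had Xist in 115 of 139 members and no Y-linked UMI, whereas the left library had Y-linked UMIs in 86 of 225 members and no Xist. The motor cortex control libraries therefore did not each show both sexes. The regional count of calls, the share, and the motor cortex values of Vcam1, Fbln2 and the lists are given below without each of these 2 pools as well.

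Some members also held RNA of other cell types. A member was called mixed if it held 5 or more UMIs from the marker list of any other cell type (the red blood cell list apart). There were 368 such members (10.8%), with a median of 3870 UMIs against 1608 in the 3035 others. Scrublet, run per library, flagged 50.3% of the mixed and 3.33% of the remaining members as presumed doublets (286 in all), and flagged cells were kept unless stated. Neuronal RNA dominated: 226 members with 5 or more UMIs of the neuron list (Snap25, Syt1, Meg3, Rtn1, Nrgn, Slc17a7, Gad1, Ppp1r1b) held 93.5% of its 29172 UMIs. The mixed share was 18.8% to 32.1% in the 4 class A pools and 7.48% to 10.4% in the class B pools. Neuron-list levels per pool ran from 1207 to 10518 CPM (UMIs per 1e6 UMIs of the members in a pool), and from 143 to 751 CPM once mixed cells were left out. Levels of single genes over all members were scaled further by a factor per pool, as given under the processing. Pericyte genes were nearly absent, with 47 UMIs over the whole list, 13 of Pdgfrb and none of Atp13a5. The limit on Rgs5 and Vtn set this in part, so that it does not measure how often pericyte RNA joined endothelial cells. The 221 cells left out by that limit had Cdh5 at 386 CPM and Pdgfrb at 224 CPM. Of 4 markers of perivascular macrophages, Mrc1, F13a1 and Cd163 had 22, 15 and 9 UMIs, while Pf4, which platelets also express, had 176 (85 with mixed members left out) in 2.56% of members. Gene comparisons are given with all members and, as an alternative chosen after seeing the data, with the mixed members left out.

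The gate genes describe how members were chosen and are not a result. Cldn5 had a median of 9 UMIs per member (highest 96), Flt1 was detected in 99.7% and Pecam1 in 64.4%. At the edges, 167 members held exactly 2 UMIs of Cldn5, while 106 cells that met the other rules held 1. Likewise, 193 members held exactly 2 UMIs of Flt1 and Pecam1 together, and 118 cells held 1. Rgs5 and Vtn together stood at 1 or 2 UMIs in 104 members, and 221 cells were outside because they held more. A further 89 cells were outside only because they held Cx3cr1.

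Markers that the rule did not use fitted the label. All 14 unused endothelial markers were over 5-fold higher in members than in all other passing cells, and higher in each of the 12 pools. Their ratios ran from 14.8 for Bsg (6884 ± 1722 CPM, SD, n = 12), the basigin chaperone of lactate carriers, to 354 for Slco1a4. These ratios and those that follow are descriptions without a test, since the rule picked cells whose genes rise together.

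Slco1a4, which encodes an organic anion and bile acid carrier of the barrier, led the genes by ratio, among those at 100 CPM or more that the gate did not use, at 1252 ± 499 CPM (522 to 1993 over pools) against 3.53 CPM in other cells. Ctla2a, a protease inhibitor gene with a close paralog that can share reads, followed at 1686 ± 667 against 4.81 CPM. Abcb1a, the P-glycoprotein drug pump, stood at 825 ± 315 against 2.42 CPM and was seen in 80.7% of members. The transcription factor gene Sox17 had 293 ± 62.0 CPM and a ratio of 333, and the adhesion receptor gene Adgrl4 had 684 ± 231 CPM and a ratio of 331. Robo4, a guidance receptor of endothelium, had a lower level (117 ± 39.0 CPM) at a ratio of 310. Ly6c1 and Ly6a, surface antigens from one gene family whose reads can be shared, reached 3670 ± 686 and 2024 ± 437 CPM. The rest of the 20 leading genes by ratio were Srarp, Hmcn1, Tmem252, Cyyr1, Xdh, Mecom, Icam2, She, Tek, Gata2, Lsr and Sox7, with ratios of 332 down to 219. Of these 20 genes, 11 stood in a list of endothelial genes and 9 did not. In all, 209 genes of 1684 at 100 CPM or more were at least 10-fold higher in members. In the plot of leading genes no pool of endothelial cells reached down to a pool of other cells.

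**Figure D1:**
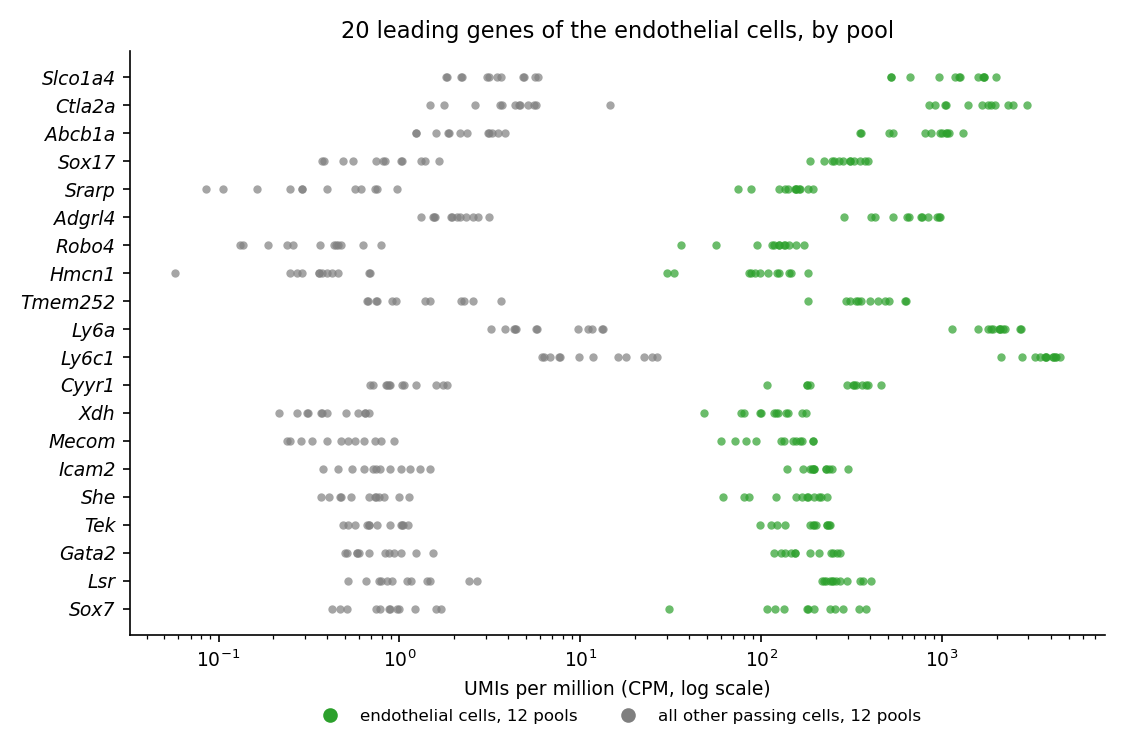
The 20 genes with the largest ratio of level in endothelial cells to level in all other passing cells, among genes at 100 CPM or more in endothelial cells and with the gate genes left out, in CPM on a log axis. Each point is 1 of 12 pools, green for endothelial cells and grey for other cells. The green and grey points do not meet for any of the 20 genes, from Slco1a4 (1252 against 3.53 CPM on average) downward.

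The promoters of leading genes were read for a shared short motif, because endothelial genes are widely known to be driven by ETS family factors. Members expressed ETS genes at 202 ± 97.8 CPM (Ets1), 144 ± 37.0 CPM (Fli1) and 27.5 ± 18.1 CPM (Erg), the last at 222 times the level of other cells. The motif was AGGAAG or CGGAAG on either strand (CTTCCT or CTTCCG when read on the opposite strand), in the 300 bases from 250 before to 50 after each start listed by RefSeq (GRCm38.p6). Of the 20 leading genes, 15 had a promoter entry, and 12 of their 19 promoters (63.2%) held a match, against 46.5% of all 32851 promoters in the table. Both windows of Ctla2a overlap and hold the same match, which counts in each, and the Abcb1a window lies far upstream of the Ensembl start of that gene. A match is a description of letters and not a site of binding. The promoters of Slco1a4 (chr6:141856171-141856470, minus strand), Adgrl4 (chr3:151437632-151437931, plus strand) and Robo4 (chr9:37401722-37402021, plus strand) are shown as 3 leading genes of different function with 1 match each. The first of 4 listed promoters of Stra6 (chr9:58128838-58129137, plus strand), the vitamin A receptor gene described by region below, is shown beside them. In listed order the 4 held 1, 0, 0 and 2 matches. Each runs 5′ to 3′ on the gene's strand, with the motif in capitals.
Slco1a4: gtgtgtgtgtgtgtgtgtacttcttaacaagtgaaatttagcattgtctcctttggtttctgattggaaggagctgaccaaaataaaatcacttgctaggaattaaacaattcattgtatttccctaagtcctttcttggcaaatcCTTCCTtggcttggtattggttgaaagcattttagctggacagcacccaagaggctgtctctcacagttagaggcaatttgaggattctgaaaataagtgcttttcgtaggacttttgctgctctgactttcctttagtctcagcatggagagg
Adgrl4: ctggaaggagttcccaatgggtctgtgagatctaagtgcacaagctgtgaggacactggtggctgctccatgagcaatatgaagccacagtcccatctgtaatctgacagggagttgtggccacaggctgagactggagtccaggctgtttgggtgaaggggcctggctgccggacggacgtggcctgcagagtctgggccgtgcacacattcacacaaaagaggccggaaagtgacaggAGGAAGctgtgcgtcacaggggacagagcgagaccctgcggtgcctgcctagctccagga
Robo4: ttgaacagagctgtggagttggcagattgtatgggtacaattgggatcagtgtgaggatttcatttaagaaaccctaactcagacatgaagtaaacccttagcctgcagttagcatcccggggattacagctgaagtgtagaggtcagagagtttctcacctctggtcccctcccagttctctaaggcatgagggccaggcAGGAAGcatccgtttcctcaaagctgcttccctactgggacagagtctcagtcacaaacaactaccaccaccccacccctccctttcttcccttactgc
Stra6: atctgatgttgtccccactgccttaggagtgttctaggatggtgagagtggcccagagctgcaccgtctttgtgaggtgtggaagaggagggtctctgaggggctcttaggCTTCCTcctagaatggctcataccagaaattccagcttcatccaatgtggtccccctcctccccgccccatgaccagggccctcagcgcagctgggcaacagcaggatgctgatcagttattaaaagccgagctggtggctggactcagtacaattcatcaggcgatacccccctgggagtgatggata

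Junction genes formed the sealing part of the profile. Beside Cldn5, members expressed Esam (553 ± 149 CPM) and Cdh5 (353 ± 122 CPM, 198 times other cells), adhesion molecules of endothelial contacts, and Ctnnb1 (533 ± 186 CPM), the catenin that anchors cadherins. Tjp1, the scaffold ZO-1, had 289 ± 82.9 CPM, and Lsr, a protein of tricellular contacts, 280 ± 62.8 CPM. Occludin (Ocln) was lower, 141 ± 47.8 CPM, but 72.4 times the level of other cells. Cingulin (Cgn) was seen in 0.323% of members, whereas its relative Cgnl1 reached 170 ± 58.0 CPM. UMI counts at the 3′ end are not divided by gene length, so that these levels rank genes by captured molecules only.

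Nutrient carriers covered sugars, amino acids, hormones, iron and vitamins. Slc2a1, the glucose carrier GLUT1, reached 2480 ± 725 CPM in 96.5% of members (1237 to 3472 over pools). Slc6a6, for taurine, had 1225 ± 374 CPM, and Slco1c1, for thyroid hormone, 731 ± 231 CPM. The heavy and light chain of the large amino acid carrier, Slc3a2 and Slc7a5, had 601 ± 166 and 429 ± 155 CPM. Slc16a1, for lactate, and Tfrc, the transferrin receptor, differed most between pools, at 191 ± 113 and 344 ± 180 CPM. Both separated by the inferred kit class. Slc16a1 ran from 42.9 to 108 CPM in class A and from 144 to 378 in class B pools, and Tfrc from 127 to 159 and from 269 to 694. Slco1a4 (522 to 957 against 1184 to 1993 CPM) and Abcb1a (353 to 536 against 801 to 1301 CPM) separated too, whereas Ctla2a did not. The source of these class differences was not tested. Slc19a3, for thiamine, was low (53.8 ± 17.6 CPM) yet 251 times the level of other cells. Slc1a4, for neutral amino acids, was lower in members than in other cells (7.86 against 25.1 CPM).

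Of the efflux pumps, Abcg2 followed Abcb1a at 650 ± 241 CPM, and Abcc4 had 172 ± 50.7 CPM. Abcc1 and Abcc5 were lower in members than in other cells (7.42 against 17.2 CPM and 35.5 against 92.5 CPM). Slc22a8, an organic anion exporter to the blood, had 168 ± 45.6 CPM. For caveolae, the coat genes Cavin2 (400 to 869 CPM over pools), Cavin1 (244 ± 62.0 CPM) and Cav1 (231 ± 73.7 CPM) were present together with Mfsd2a (216 ± 62.3 CPM), a lipid carrier known to hold caveolar transport down. Plvap, the diaphragm protein of leaky and fenestrated vessels, was rarely detected, with a UMI in 0.911% of members, and Esm1 was at 0 UMIs.

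Genes of the Wnt barrier pathway spanned receptor to target. The receptor complex was present at Fzd4 101 ± 43.9, Fzd6 69.7 ± 22.3, Tspan12 67.0 ± 13.1, Reck 65.9 ± 26.2 and Adgra2 42.2 ± 9.04 CPM. Lef1, the transcription factor of the pathway, had 233 ± 76.0 CPM and was 112 times higher than in other cells. Its targets and feedback genes Nkd1 (227 ± 62.3 CPM), Notum (58.4 ± 16.3 CPM) and Axin2 (51.4 ± 21.6 CPM) were 15.3, 27.1 and 3.51 times higher than in other cells. The barrier-linked factors Foxq1 (419 ± 96.8 CPM) and Foxf2 (90.6 ± 19.2 CPM) were 215 and 37.5 times higher than in other cells.

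Receptors of growth factors were widely detected, and Apln and Esm1 of the tip cell genes rarely. Kdr, the main VEGF receptor, had 283 ± 110 CPM, Notch1 203 ± 73.1 CPM, the angiopoietin receptor Tek 182 ± 51.4 CPM and its partner Tie1 130 ± 43.8 CPM. Dll4, a Notch ligand, had 106 ± 37.1 CPM. The tip cell genes Apln and Esm1 were seen in 0.617% and 0% of members, and Angpt2 had 29.3 ± 19.3 CPM. Id1 (1611 ± 470 CPM) and Id3 (1165 ± 381 CPM), targets of BMP signals, were abundant beside the receptors Eng (586 ± 134 CPM), Bmpr2 (429 ± 193 CPM) and Acvrl1 (406 ± 59.5 CPM). Of the basement membrane, members expressed the matrix genes Sparc (1242 ± 521 CPM) and Fn1 (733 ± 223 CPM) and the collagens Col4a1 (248 ± 167 CPM) and Col4a2 (189 ± 85.4 CPM).

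Members carried high levels of flow and stress genes. The flow-induced factors Klf2 and Klf4 had 3500 ± 1099 and 2350 ± 508 CPM and were found in 92.8% and 93.5% of members. Of the immediate early genes, Junb had 3843 ± 900, Jun 3728 ± 1683, Fos 2934 ± 1497 and Jund 2794 ± 610 CPM, and Fosb was found in 92.3% of members. Fos was 4.60 times the level of all other cells. Heat shock genes were led by Hsp90ab1 (3026 ± 642 CPM), Hspa1a (2865 ± 1143 CPM, with the near-identical Hspa1b) and Hspb1 (2120 ± 520 CPM, 33.3 times other cells). Such genes also respond to warm enzymatic digestion, which every sample went through, so that its part cannot be told apart here. Of the hypoxia and glycolysis list, Epas1, an oxygen sensing factor typical of endothelium, led at 1277 ± 224 CPM, while Vegfa had 12.9 ± 8.21 CPM.

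Inflammatory genes ranged from widespread to nearly absent. The inhibitors Nfkbia (2090 ± 557 CPM) and Socs3 (249 ± 66.3 CPM) were widespread, and Icam1 (177 ± 89.2 CPM) was detected in 18.7% of members. Vcam1 was detected in 7.26% of members, and Sele, Selp and Il6 in 0.382%, 0.0294% and 0.0882%. MHC class I and interferon genes were present in all pools, with B2m at 1197 ± 440, Ifitm3 at 1151 ± 211, Ly6e at 1013 ± 219 and H2-D1 at 888 ± 195 CPM.

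Endothelial cells made up a few percent of the cells in most pools, with a wide spread. Their share was 4.09% ± 3.16 in motor cortex and 2.68% ± 1.14 in dorsal striatum (SD, n = 6 pools each). The difference of -1.41 percentage points was smaller than the spread (exact permutation test over pools, two-sided, p = 0.381). This test had no term for kit class, by which the shares separated as given below, so that the spread includes the class difference. Each region had pools of both classes. It fell to -0.228 without motor cortex early replicate 1 (p = 0.755) and widened to -2.01 without motor cortex control replicate 1 (p = 0.141), and it was -1.31 without motor cortex control replicate 2 (p = 0.513, all by the same exact test).

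Within motor cortex the control pools had 1.07% and 4.59%, the early pools 3.26% and 10.0% and the late pools 1.95% and 3.66%. The striatal pools had 1.90% and 2.75% in controls, 3.15% and 3.18% early and 0.898% and 4.19% late. Stages overlapped in motor cortex, and in striatum the early pools lay inside the range of the late pools and above both control pools. Every class A pool (0.898% to 1.95%) lay below every class B pool (2.75% to 10.0%). No early pool was in class A, and the part of the inferred kit class in these shares was not tested. With 2 pools against 2, an exact test cannot go below p = 0.333. The extremes among libraries were the right library of motor cortex control replicate 1 (28 of 4470 cells, 0.626%, Wilson 95% interval 0.434% to 0.904%) and the contralateral library of motor cortex early replicate 1 (12.5%, 11.5% to 13.7%). The left library of that control pool held 25 of 469 cells, 5.33% (3.64% to 7.75%). These intervals cover counting error only. How well each dissociation freed vessel cells was not measured, so that it cannot be told apart from the makeup of the tissue.

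**Figure D2:**
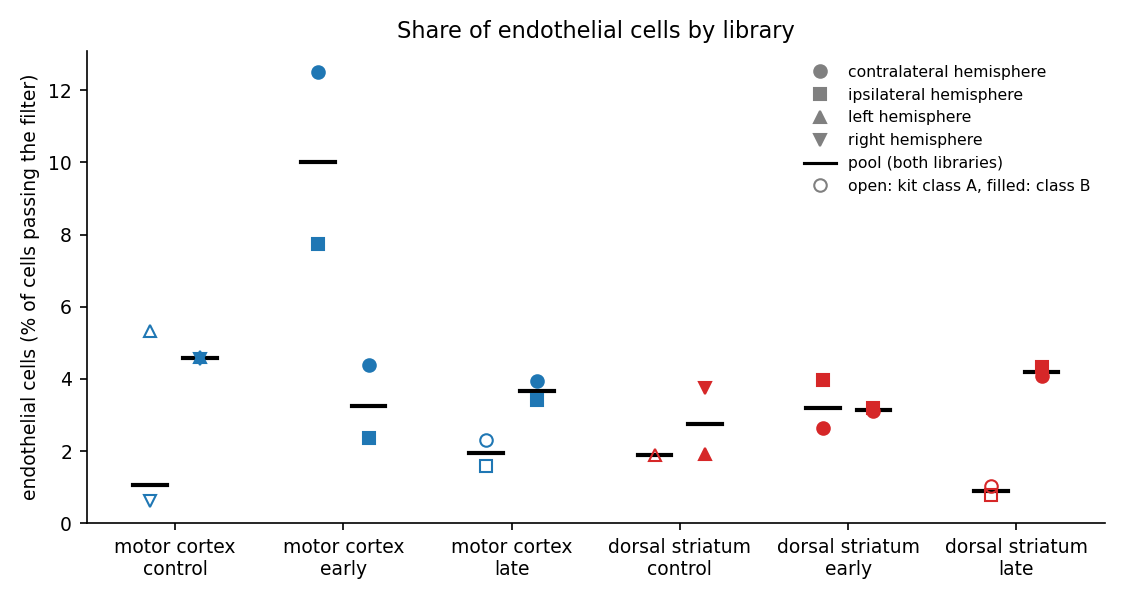
Share of passing cells that are endothelial, in percent, by group. Points are libraries (symbols give the hemisphere, open symbols kit class A, filled class B) and short lines are pools. Libraries run from 0.626% to 12.5%, and the 2 libraries of motor cortex early replicate 1 lie above all others.

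In trained motor cortex the hemisphere opposite the reaching limb gave the larger endothelial share in 4 of 4 pools. The contralateral excess was 4.81 and 2.01 percentage points early and 0.716 and 0.543 late. In striatum it was -1.33, -0.0674, 0.248 and -0.258, of both signs. Over all 8 trained pools the mean was 0.835 ± 1.86, higher in 5 of 8, which does not differ from 0 beyond the spread (exact sign-flip permutation test, two-sided, p = 0.281, smallest possible 0.00781). The difference between regions was not tested, nor was either region alone. With 4 pools, an exact sign-flip permutation test cannot go below p = 0.125.

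Arterial and venous genes separated within the members. A cell was placed in the arterial range if it held at least 2 UMIs of Bmx, Sema3g, Gkn3, Vegfc and Efnb2 together and none of Slc38a5, Nr2f2, Ackr1, Vcam1 and Lcn2, and in the venous range by the reverse. There were 410 arterial-range members (12.0%) and 257 venous-range members (7.55%), while 1758 held no UMI of either list and 94 held at least 2 of each. These ranges are cut from counts and are not cell types: 152 arterial-range members sat at exactly 2 UMIs and 368 further cells at 1, and for the venous range these were 135 and 372. Median depths were 2072 and 2319 UMIs. Of 31 genes that took no part in the choice, 22 (71.0%) differed between the ranges over 11 pools at an adjusted p under 0.05 (exact sign-flip permutation test, two-sided, with Benjamini-Hochberg adjustment, smallest possible p 0.000977). Motor cortex control replicate 1 had 4 venous-range cells and was left out.

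On the arterial side were Mgp, a matrix calcification inhibitor (1550 ± 1453 against 31.9 ± 70.5 CPM), and Alpl, alkaline phosphatase (189 ± 55.3 against 2.81 ± 4.88 CPM). Differences on the log2(CPM + 10) scale, which understates low genes, were 5.88 ± 1.98 and 3.99 ± 0.62 (SD over 11 pools), higher in 11 of 11 pools with adjusted p = 0.00216 by the exact test. Hey1, a Notch target, was at 246 against 39.0 CPM and the connexin gene Gja4 at 86.1 against 1.02 CPM, again in 11 of 11 pools. Edn1, the vasoconstrictor endothelin, stood at 442 against 193 CPM, and Glul, glutamine synthetase, at 1169 against 447 CPM. Crip1, Stmn2, S100a6 and the chemokine gene Cxcl12, which is on the capillary list, were also higher in arterial-range cells. Over all members, mixed members held 54.3% of the UMIs of Stmn2 and 41.7% of those of S100a6. For Crip1 and Cxcl12 these shares were 12.6% and 7.85%. Stmn2 was also higher in the other cells (505 CPM) than in members (230 CPM). Fbln5, an elastic fibre gene, had 52 UMIs in arterial-range and 0 in venous-range cells.

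On the venous side, Tmsb10, an actin binding peptide, stood at 937 against 153 CPM and Icam1, a leukocyte adhesion molecule, at 412 against 105 CPM. The protease gene Ctsc (224 against 29.1 CPM) and the interleukin receptor Il1r1 (94.5 against 11.1 CPM) lay the same way in 11 of 11 pools. Of 8 capillary genes, 5 passed on the venous side (Car4, Slc16a1, Tfrc, Slc22a8 and Mfsd2a), Cxcl12 passed on the arterial side and Rgcc and Spock2 did not pass. Car4, carbonic anhydrase 4, had 632 CPM in venous-range, 369 in unplaced and 29.8 in arterial-range cells, a difference of -4.55 ± 1.16. Slc16a1 and Tfrc stood at 273 against 78.9 and 521 against 197 CPM. Vwf, von Willebrand factor, leaned the same way by -0.55 ± 0.65 (9 of 11 pools, adjusted p = 0.0261 by the exact test), but its sign turned to 0.83 when each cell was thinned to 1000 UMIs. Thinning left 280 and 117 cells in the ranges and 14 genes called. Gja5, Clu, Cytl1, Lrg1, Ephb4, Ch25h, Prcp, Rgcc and Spock2 did not pass.

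**Figure D3:**
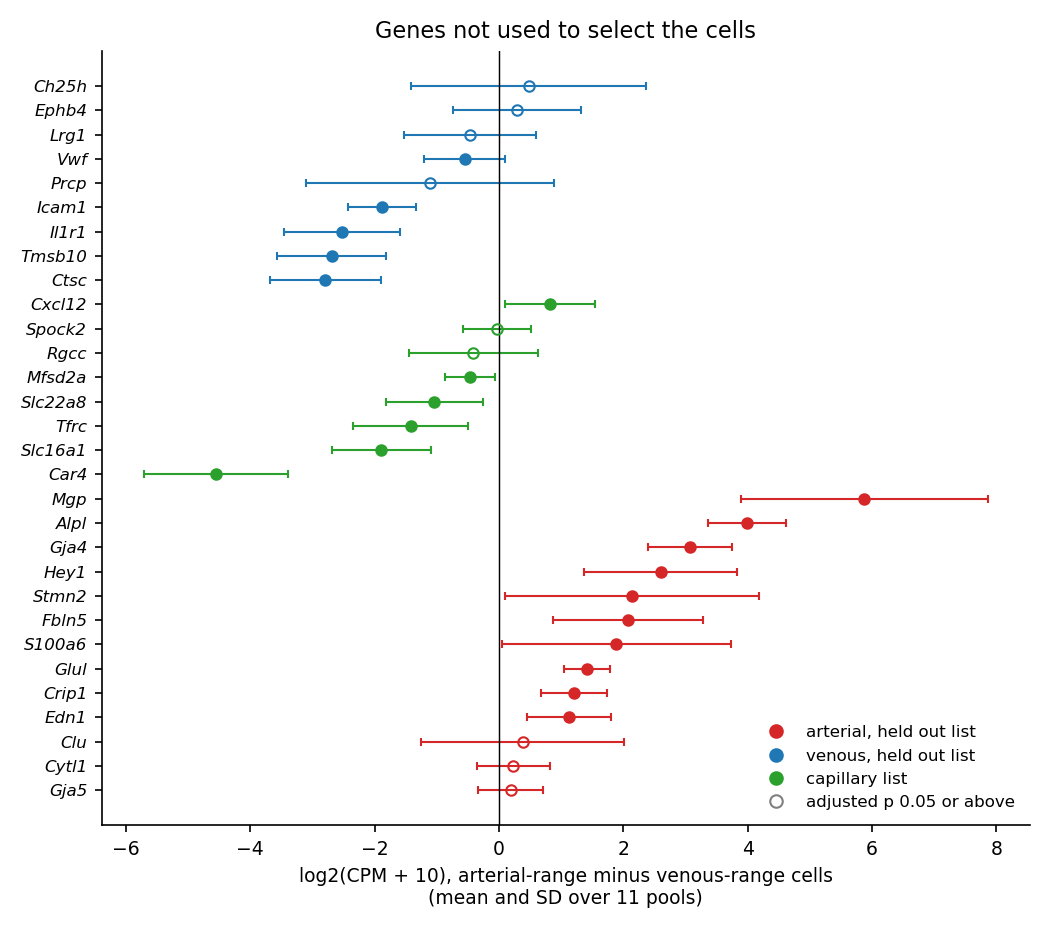
Difference between arterial-range and venous-range endothelial cells in log2(CPM + 10) for 30 of the 31 genes that were not used to choose the cells. Points are means and bars the SD over 11 pools, coloured by list, and open points have an adjusted p of 0.05 or above. Mgp (5.88) and Alpl (3.99) are farthest to the right, and Car4 (-4.55) is farthest to the left.

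A minority of members held red blood cell RNA in large amounts. In 226 members (6.64%) there were 10 or more UMIs of the haemoglobin genes Hba-a1, Hba-a2, Hbb-bs and Hbb-bt, whose near-identical copies can share reads. They held 99.8% of the 360514 haemoglobin UMIs. A further 575 members had 1 to 9 such UMIs and 2602 had none, so that the counts were not evenly spread. Within the 226 cells the median was 1438 haemoglobin UMIs, 40.1% of the cell's total. Their remaining UMIs (median 1742) and their Cldn5 UMIs (median 9) were close to those of cells without haemoglobin (1592 and, over all other members, 9). Alas2, the haem synthesis enzyme of red cell precursors, had 1064 UMIs in 156 of these cells and 3 UMIs in all other members.

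The haemoglobin-high share was 4.67% to 10.3% per pool, 7.17% ± 1.80 (n = 12). It was 1.09% ± 2.51 in pericytes (8.96% in 1 motor cortex pool), 0.391% ± 0.706 in microglia and 0.340% ± 0.362 in neurons of the same libraries. Pericytes here are cells with at least 3 UMIs of Rgs5 and Vtn, at most 1 of Cldn5 and at least 1 of Pdgfrb or Kcnj8 (4020 cells). Microglia held at least 2 UMIs of Cx3cr1 and of C1qa and C1qb (11731 cells), and neurons at least 10 of Snap25, Syt1 and Meg3 (51106 cells). The excess over pericytes was 6.08 percentage points, higher in 11 of 12 pools (exact sign-flip permutation test, two-sided, p = 0.000977, adjusted p = 0.00133). Over microglia and neurons it was 6.78 and 6.83, in 12 of 12 pools (p = 0.000488, the smallest possible for 12 pools by this permutation test, adjusted p = 0.000732). Adjustment was over 15 tests that include the reporter tests below. Regions did not differ beyond their spread (7.51% ± 1.83 against 6.82% ± 1.87, exact permutation p = 0.530). How this RNA came to be in these droplets was not tested.

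The reporter was read from 2 sequences the authors had added to the reference, tdtomato and the WPRE element that follows it. In members, 25.6% ± 4.92 of cells held a UMI of either (17.0% to 33.2% over pools), nearly all from WPRE, since tdtomato alone was seen in 0.512% ± 0.549. Cell types differ in depth (library medians of 1372 to 2424 UMIs in members, 1338 to 2224 in pericytes, 1300 to 3818 in microglia and 2606 to 13907 in neurons), so cells were also compared by the share expected if each cell were thinned to 1000 UMIs, with none left out. Thinned, the share was 14.4% ± 2.54 in endothelial cells, 19.2% ± 2.49 in pericytes, 6.82% ± 3.04 in neurons and 3.26% ± 0.786 in microglia. Unthinned shares were 31.7% ± 5.37 in pericytes, 19.6% ± 4.41 in neurons and 7.10% ± 2.16 in microglia.

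Thinned, endothelial cells lay 7.56 percentage points above neurons and 11.1 above microglia in 12 of 12 pools, and 4.80 below pericytes in 12 of 12 (each exact sign-flip permutation p = 0.000488, adjusted p = 0.000732). Leaving out mixed members gave 7.96 over neurons (11 of 12 pools, exact p = 0.000977), 11.5 over microglia (12 of 12, exact p = 0.000488) and -4.40 against pericytes, where endothelial cells were higher in 2 of 12 pools (exact p = 0.00293). Unthinned, the share was above that of neurons in 10 of 12 pools (exact sign-flip permutation p = 0.00195, adjusted p = 0.00244). The added Neo sequence, unthinned, showed another order, with 14.8% ± 3.32 of endothelial cells against 9.72% ± 2.40 of pericytes, 6.49% ± 2.10 of neurons and 2.68% ± 1.11 of microglia, highest in endothelial cells in 12 of 12 pools (adjusted p = 0.000732 by the exact test in each pair). Striatum and motor cortex did not differ beyond the spread in the reporter (thinned 14.4% ± 2.35 against 14.3% ± 2.94, exact permutation p = 0.935) or in Neo (p = 0.219). Free RNA can give UMIs in any cell, and its level was not measured here. The source of these UMIs was not tested.

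**Figure D4:**
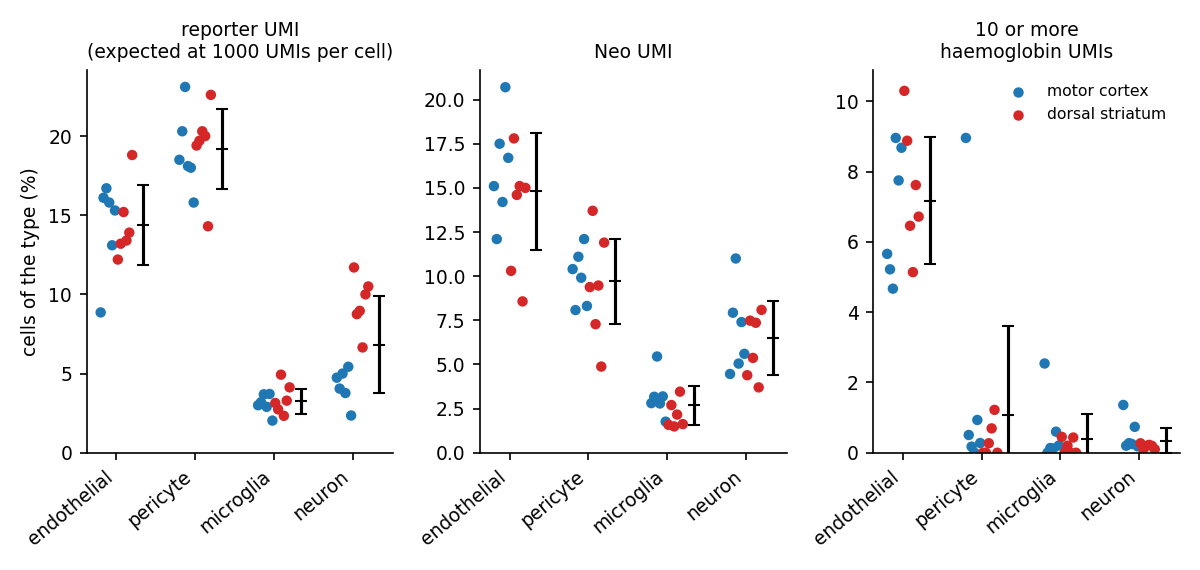
Percent of cells with a reporter UMI (WPRE or tdtomato, expected at 1000 UMIs per cell), with a Neo UMI (unthinned) and with 10 or more haemoglobin UMIs, by cell type. Points are the 12 pools, blue for motor cortex and red for dorsal striatum, and bars are the mean and SD. Endothelial cells lie between pericytes and neurons for the reporter (14.4%) and above the other types for Neo (14.8%) and haemoglobin (7.17%).

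With all members, the comparison of regions gave more calls than those of stages or hemispheres. It set 6 pools against 6, with a median standard error of 0.24 on the log2 scale. That error was 0.39 to 0.46 for stages, at 2 pools against 2, and 0.22 and 0.25 for hemispheres. The counts therefore do not rank the sizes of the differences. DESeq2 called 466 genes between the regions. Over 9482 genes, 613 were called (6.46%) at an edgeR adjusted p under 0.05, of which 166 (1.75%) were higher in striatum and 447 (4.71%) lower. The pools of the regions did not overlap for 2.28% of all genes tested. Among called genes whose pools did not overlap, the 10 with the smallest edgeR adjusted p included Cck, Sncb, Olfm1, Adcy5, Slc17a7, Meis2, Nnat, Vsnl1 and Rgs9, with 84.2% to 93.1% of their UMIs in mixed members. Cck, a neuropeptide of cortical neurons, was at 471 ± 231 CPM in motor cortex and 5.22 ± 4.69 in striatum. Adcy5, an adenylyl cyclase of striatal neurons, was higher in striatum by 3.82 (SE 0.25) on the log2 scale.

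Most calls moved with the other cells of the libraries. Of 611 calls that could be tested in all other passing cells, 564 were called there in the same direction and 5 in the opposite one, and 10700 of 22483 genes were called there. The level was higher in the other cells for 551 of the 613. A median of 88.0% of a called gene's UMIs lay in mixed members, against 30.6% over all genes tested. With the mixed members left out, 217 of the 613 were still abundant enough to test and 19 were called, out of 7153 genes (0.266%), 13 higher (0.182%) and 6 lower (0.0839%). With members of 5 or more haemoglobin UMIs left out as well, the count was 17 of 6924 (0.246%), 12 higher (0.173%) and 5 lower (0.0722%). With presumed doublets removed it was 15. Without motor cortex control replicate 1 or replicate 2 the count over all members was 547 and 506, and without dorsal striatum late replicate 2 it was 314. Without the inferred kit class as a term it was 322.

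Stra6 was higher in striatal endothelium in both fits. It encodes a receptor for the uptake of vitamin A (chromosome 9, 58063788 to 58153996, GRCm38). The 6 striatal pools ran from 73.6 to 192 CPM (median 92.7). The 6 motor cortex pools started at 17.1 CPM, had a median of 22.1 CPM and all lay below the lowest striatal pool, so that the groups did not overlap. The means were 107 ± 43.3 and 24.4 ± 6.50 CPM, a log2 difference of 2.09 (SE 0.20, edgeR adjusted p = 2.12e-06). It was 2.01 with mixed members left out (edgeR adjusted p = 3.23e-06), 1.96 without presumed doublets (adjusted p = 0.000564) and 1.88 to 2.26 with each pool left out, called all 12 times. Within flow cells that held pools of both regions it was 1.76 and 3.29. It was detected in 11.5% of members. All other cells had 0.762 CPM with a difference of 1.47 between regions, and the excess in members of 0.61 did not pass (limma adjusted p = 0.212). The first RefSeq promoter is printed above.

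Edn1, Fos and Gadd45g were also higher in striatum with and without the mixed members. Edn1, the gene of the vasoconstrictor endothelin (chromosome 13, 42301476 to 42307990), ran from 223 to 473 CPM in striatum (median 368) and from 149 to 242 in motor cortex (median 162), with slight overlap. Its log2 difference was 0.98 (SE 0.16, edgeR adjusted p = 0.000764), 0.86 without mixed members (adjusted p = 0.00715) and 1.35 and 1.19 within flow cells. In the other cells it differed by -0.38, and the gap between members and other cells was 1.25 (limma adjusted p = 0.0786). Fos, an immediate early factor, stood at 2621 to 4954 CPM in striatum (median 4386) and 1006 to 2887 in motor cortex (median 1362). The pools overlapped, the difference was 1.33 (SE 0.22, edgeR adjusted p = 0.000658), and it was 1.25 without mixed members (adjusted p = 0.00260). The other cells showed 1.24 for Fos, so that members and other cells differed by 0.10 (limma adjusted p = 0.776). The motor cortex mice carry Fos-CreER and the striatal mice Arc-CreER, which for Fos cannot be told apart from region. Gadd45g, a stress-induced growth arrest gene, ran from 325 to 721 CPM in striatum and from 231 to 320 in motor cortex without overlap (0.73, SE 0.14, edgeR adjusted p = 0.00234, and 0.70 with adjusted p = 0.0160 without mixed members). Within flow cells it was 0.34 and 0.73. With presumed doublets removed the differences were 0.84 for Edn1 and 1.27 for Fos (edgeR adjusted p = 0.0805 for both) and 0.69 for Gadd45g (adjusted p = 0.127), so that none of the 3 passed.

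The other calls that held in both fits included Mylip, Ccnd2, the pseudogene Hsp25-ps1 and the unnamed gene Gm14636, all higher in striatum, Pcp4, and 9 genes of neurons. Mylip, a ubiquitin ligase that turns over lipoprotein receptors, had 65.4 ± 29.8 against 32.7 ± 10.2 CPM (0.96, SE 0.21, edgeR adjusted p = 0.00876). It went the other way in the other cells (-0.46), and the gap of 1.35 passed (limma adjusted p = 0.00920). It was called in 8 of 12 fits with a pool left out. With presumed doublets removed, Mylip, Hsp25-ps1, Gm14636 and Pcp4 did not pass (0.92, 1.21, 1.27 and 1.83, edgeR adjusted p = 0.191, 0.191, 0.200 and 0.348). Nor did Snap25, Vsnl1, Tac1, Ppp1r1b and Nrgn of the genes of neurons (edgeR adjusted p = 0.129, 0.116, 0.0805, 0.191 and 0.357). Cck, Slc17a7, Olfm1 and Nnat passed. Ccnd2, a cyclin, had 255 ± 96.1 against 91.3 ± 28.1 CPM (1.45, and 0.87 without mixed members, who held 47.0% of its UMIs) and 2.24 in the other cells (gap -0.81, limma adjusted p = 0.0305). The 9 genes of neurons were Cck, Snap25, Vsnl1, Tac1, Slc17a7, Olfm1, Ppp1r1b, Nnat and Nrgn. Pcp4, a calmodulin-binding peptide of neurons, was like them in its level in the other cells (2664 against 584 CPM in members) and had 84.9% of its UMIs in mixed members. Snap25, Slc17a7, Ppp1r1b and Nrgn are on the neuron list by which members were called mixed. Leaving out mixed members therefore limits the counts of these genes by rule, and that fit is not an independent check for them. Over all 9482 genes the gap between members and other cells was called for 630 (6.64%).

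Genes that members express more than other cells gave another view, by a rule chosen after the data were seen. Of 1591 tested genes at 2 times or more the level of other cells, 44 were called (2.77%), all of them higher in striatum, against 6.46% of all genes called in either direction and 1.75% called higher. Cav1, the caveolar coat gene, had 287 ± 45.3 against 174 ± 47.5 CPM (0.73, SE 0.15, edgeR adjusted p = 0.00532), and Cavin1 289 ± 46.7 against 200 ± 38.8 CPM (0.53, adjusted p = 0.0195). Within flow cells that held pools of both regions, Cav1 stood at 0.12 and 0.24 and Cavin1 at 0.30 and 0.27, below the values over all pools. Id3, the BMP target, had 1448 ± 298 against 881 ± 195 CPM without overlap (0.71, edgeR adjusted p = 0.0171). Alpl (93.9 ± 15.7 against 55.0 ± 11.6 CPM) and Cp, the ferroxidase ceruloplasmin (148 ± 21.7 against 86.3 ± 21.7 CPM), also had no overlapping pools. Gkn3, an arterial gene, Tgfb2, a growth factor, Prom1, a membrane protein, and the factor gene Gata2 differed by 0.78, 0.81, 0.72 and 0.61. Within flow cells Alpl was 0.66 and 0.23, Cp 1.19 and 0.39 and Gkn3 1.31 and 0.22. Edn1, Alpl and Gkn3 are arterial genes, and Gkn3 helped to choose the arterial range. Arterial-range cells were 10.3% to 21.9% of members in striatal and 9.23% to 15.1% in motor cortex pools, and their part in these differences was not tested. With the mixed members left out, Stra6, Fos, Edn1, Gadd45g, Hsp25-ps1 and Gm14636 of these 44 remained called, and Cav1 stood at 0.59 (edgeR adjusted p = 0.163). Neuron-list levels ran from 2668 to 10518 CPM in motor cortex and from 1207 to 6046 CPM in striatum, and their part in these differences was not tested.

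**Figure D5:**
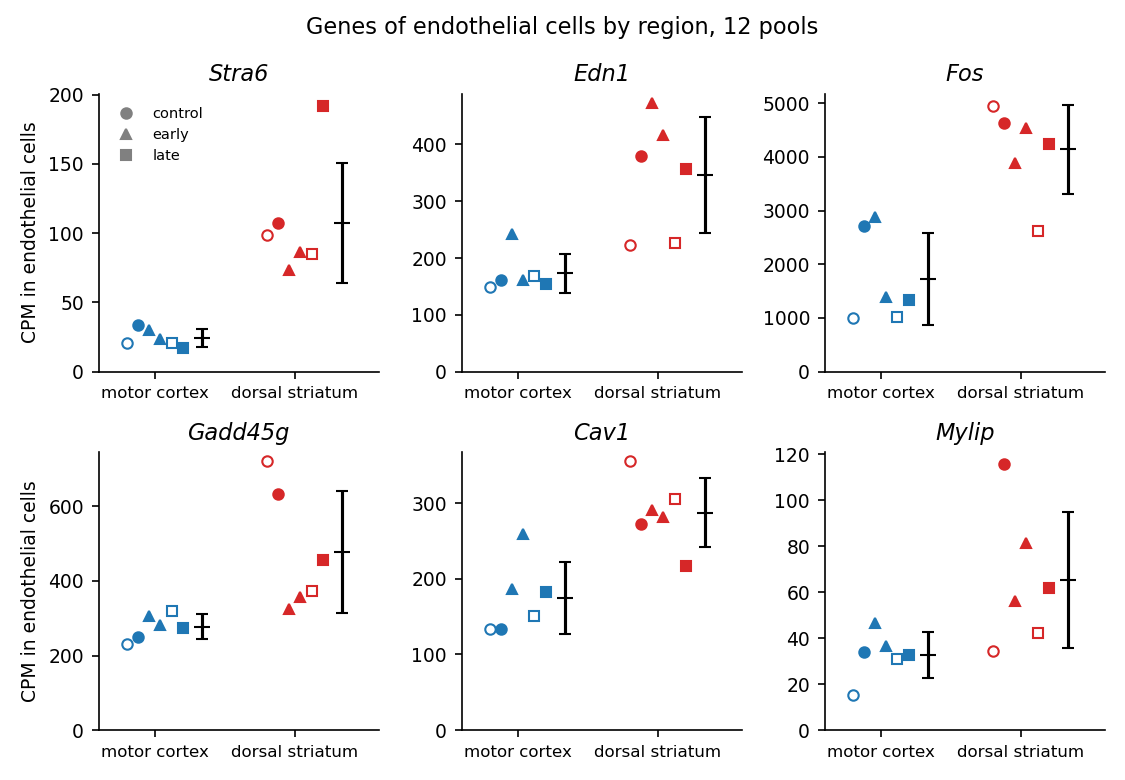
Levels in endothelial cells of 6 genes in CPM, for the 6 motor cortex and 6 striatal pools. Symbols give the stage, open symbols kit class A, and bars are the mean and SD. Stra6 (24.4 against 107 CPM) and Gadd45g (277 against 477 CPM) have no overlapping pools, while Edn1, Fos, Cav1 and Mylip overlap.

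By list, few endothelial genes were called between the regions. None of 12 tested junction genes, 21 nutrient carriers, 5 efflux pumps, 23 Wnt pathway genes, 14 VEGF, angiopoietin and Notch genes, 25 pan-endothelial genes, 15 interferon and MHC genes or 12 heat shock genes was called, against 6.46% of all genes. In lists of 5 to 25 genes that share gives few calls or none, so that these counts do not show the lists to be alike in the regions. Their medians ran from 0.01 for nutrient carriers to 0.20 for the Wnt pathway, against 0.00 for all genes. Slc2a1 had 2635 ± 767 against 2324 ± 714 CPM and Abcb1a 886 ± 363 against 764 ± 279 CPM. Called list members were Cav1 and Cavin1 (2 of 9 caveolae genes), Id3 (1 of 13 TGF-beta, BMP and PDGF genes), Lama4 (1 of 11 basement membrane genes), Edn1 (1 of 6 flow genes) and Fos (1 of 16 immediate early genes), all higher in striatum. Aldoa (492 ± 128 against 737 ± 228 CPM) was lower, as was the venous gene Ackr1 (-1.59, SE 0.45, edgeR adjusted p = 0.0402). Aldoa was not among the 19 genes called with mixed members left out. Nor was it among the called genes at 2 times or more the level of other cells. Ackr1 was called in 1 of 12 fits with a pool left out, had 58.4% of its 89 UMIs in mixed members, was too rare to test without them, and stood at 35.2 CPM in the other cells against 9.82 in members. Of the immediate early genes, 14 of 16 had a positive difference with a median of 0.30, but Jun (0.39, edgeR adjusted p = 0.328) and Junb (0.22, adjusted p = 0.599) did not pass.

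Few genes were called between training stages in endothelial cells. In motor cortex no gene was called by edgeR between early and control, late and control, or late and early (0% of 9482 each). The smallest edgeR adjusted p was 0.179, 0.231 and 0.827, and unadjusted p was under 0.05 for 9.09%, 7.49% and 4.82% of genes. DESeq2 called 0, 6 and 0. The median standard error over genes was 0.39 to 0.41 on the log2 scale. Within a region, each pair of these 3 comparisons has 2 pools in common. No early pool was in kit class A, so that an early difference rests on the class B control and on the estimate for the inferred kit class.

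Vcam1, the leukocyte adhesion molecule of activated and venous endothelium, had the smallest p of the early comparison in motor cortex. Its pools stood at 51.3 and 32.9 CPM in controls and 116 and 135 CPM early. They did not overlap, as for 43.8% of all genes, and the difference of 1.81 (SE 0.32) did not pass (edgeR adjusted p = 0.179). It was 1.73 within a flow cell and 1.71 without mixed members, where control replicate 1 stood at 103 CPM without the factor per pool (edgeR adjusted p = 0.236). Without control replicate 1 it was 1.92 and without control replicate 2 it was 1.50 (edgeR adjusted p = 0.229 and 0.392). In late pools Vcam1 was at 103 and 70.0 CPM. Of the 4 genes next in p, Gpr162, Nefl and Rragd were lower early and had 86.7% to 94.6% of their UMIs in mixed members, and Gm26870 was higher (4.23, edgeR adjusted p = 0.179).

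Late against control in motor cortex, Fbln2, an extracellular matrix gene, stood at 44.7 and 94.8 CPM against 10.3 and 26.3 (1.79, SE 0.36, edgeR adjusted p = 0.256), a difference of 1.67 and 2.34 without control replicate 1 and replicate 2. These pools did not overlap, as for 26.4% of all genes. Lars2, Gm26870 and mt-Rnr1 had differences of 3.14, 4.66 and 1.89 and Gpr162 of -1.90, none passing. The pools overlapped for Lars2 and mt-Rnr1. These 2 stood at 3.22 and 2.41 without control replicate 1 and at 1.22 and 1.11 without control replicate 2, and within a flow cell Lars2, Gm26870 and mt-Rnr1 stood at 0.72, 1.48 and 1.00. Between late and early, Lcn2, an iron-binding acute phase protein, had 5.16 and 0 CPM late against 32.7 and 17.6 CPM early (-4.29, SE 0.87, edgeR adjusted p = 0.827). Nefl and the predicted genes Gm12346 and Gm13611 were at higher and Cdk2ap1 at lower values late, with edgeR adjusted p of 0.827 to 0.871.

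Several lists lay to one side without any member passing. In the early motor cortex pools 11 of 11 basement membrane genes had a positive difference, with a median of 0.84 against 0.01 for all genes. Col4a1 was at 284 and 690 CPM early against 87.3 and 218 in controls (1.08, SE 0.41, edgeR adjusted p = 0.397), and Sparc at 1172 and 2692 against 565 and 1132 CPM (1.00, adjusted p = 0.411). All 15 interferon and MHC genes (median 0.57), 24 of 25 pan-endothelial genes (0.42) and 11 of 13 leukocyte adhesion genes (0.68) were positive too. Without mixed members these medians were 0.44, 0.19, 0.10 and 0.47. They were 0.78, 0.41, 0.19 and 0.59 without control replicate 1, and 0.84, 0.93, 0.86 and 1.50 without control replicate 2, again with no member called. Neuron-list levels were 10518 and 5928 CPM in the 2 control pools and 3229 and 2668 CPM in the early pools, and the part of this difference in the list medians was not tested. Late against control, 12 of 12 junction genes (median 0.42, 0.26 without mixed members) and 20 of 25 pan-endothelial genes (0.27 and 0.09) were positive. Without control replicate 1 these medians were 0.27 and -0.01, and without control replicate 2 they were 0.79 and 0.74. Slc2a1 had differences of 0.16 early and 0.29 late, with edgeR adjusted p of 0.955 and 0.877.

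In dorsal striatum no gene of the endothelial lists was called against controls. Early against control, 2 genes were called, both higher (0.0211% of 9482), and late against control 1 (0.0105%). The unadjusted edgeR p was under 0.05 for 677 and 580 genes. Penk, the enkephalin gene of striatal neurons (chromosome 4, 4133531 to 4138819), stood at 133 and 11.8 CPM in controls, 235 and 155 early and 1176 and 186 late. It was higher by 3.46 (SE 0.45, edgeR adjusted p = 0.00560) and 3.35 (SE 0.39, adjusted p = 0.00133). These fitted sizes include the term for the inferred kit class, and Penk was called in neither comparison without that term. Without mixed members, who hold 93.7% of its UMIs, the pools were at 0 and 10.1, 22.6 and 20.3, and 58.8 and 14.3 CPM, and neither difference passed (1.77 in both, edgeR adjusted p = 0.991 and 0.999). Rgs4 (2.50 and 2.00), Tesc (1.97 late), Nos1 (-4.39 late) and Pf4, the platelet and macrophage gene named above (-2.90 and -3.52) did not pass. Nos1 stood at 21.4 and 256 CPM in controls and was -0.60 without mixed members, -0.52 within a flow cell and -1.39 without control replicate 2. Pf4 was -0.75 and -1.20 without mixed members. No gene was called early against control without control replicate 2 or early replicate 1, or late against control without control replicate 2 or late replicate 2.

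Of endothelial genes in this comparison, Sema4c, a semaphorin, was at 45.4 and 56.1 CPM early against 60.1 and 145 in controls (-1.39, SE 0.29, edgeR adjusted p = 0.322), without overlap, as for 36.0% of all genes. Immediate early genes were lower in 15 of 16 cases both early (median -0.50) and late (-0.39), against 0.00 and -0.01 for all genes, with no member called. Without mixed members the medians were -0.36 and -0.28. Fos stood at 4954 and 4632 CPM in controls, 3888 and 4535 early and 2621 and 4237 late, with edgeR adjusted p of 0.825 and 0.880. Nutrient carriers were lower late in 20 of 21 cases (median -0.27, -0.06 without mixed members), and interferon and MHC genes lower early in 13 of 15 (-0.29 and -0.07). The early and the late comparison use the same 2 control pools.

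Between late and early striatum, 1 gene was called (0.0105%), and unadjusted p was under 0.05 for 366. Tagln, a smooth muscle gene (chromosome 9, 45929619 to 45936058), was at 75.3 and 77.1 CPM late against 3.25 and 3.40 early (4.50, SE 0.58, edgeR adjusted p = 0.00465). Of its UMIs 84.1% lay in mixed members, it was too rare to test without them, and it was not called without late replicate 2. Acta2, also of smooth muscle, had 3.99 (SE 0.89, edgeR adjusted p = 0.576), with 89.3% of its UMIs in mixed members, and turned to -0.78 without late replicate 2. Sox18, an endothelial transcription factor gene (chromosome 2, 181669836 to 181671640), went the other way, at 32.9 and 29.7 CPM late against 235 and 133 early. The pools did not overlap, as for 35.2% of all genes, and the change of -2.30 (SE 0.41) did not pass over all members (edgeR adjusted p = 0.149). Without mixed members it did, at -2.34 (edgeR adjusted p = 0.0374), with pools at 50.4 and 32.8 CPM against 300 and 153. Without dorsal striatum late replicate 2 it was -0.83 (edgeR adjusted p = 0.985). Fbln5 had 14.1 and 13.1 CPM late against 37.9 and 86.7 early (-2.24, edgeR adjusted p = 0.576).

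The change in members was also set against the change in all other cells of the same pools. None of 9482 genes was called for that gap in any of the 6 stage comparisons (limma, unadjusted p under 0.05 for 227 to 948 genes). For Vcam1 the gap was 1.16 (limma adjusted p = 0.956). The early change differed between regions for 6 genes (0.0633% of 9482), all genes of neurons with at least 89.2% of their UMIs in mixed members, and the late change for none (edgeR, smallest adjusted p 0.0567, unadjusted p under 0.05 for 813, DESeq2 6).

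Hemispheres of trained mice were compared within pools. In motor cortex none of 5546 genes was called (0%; edgeR, unadjusted p under 0.05 for 171, DESeq2 0), with the smallest adjusted p of 0.0995 for Rprm, a gene of deep layer neurons. In dorsal striatum 1 of 5648 was called (0.0177%, unadjusted 234, DESeq2 1).

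Mgp and Mfsd2a leaned apart across the striatal hemispheres without passing over all members. Mgp, the arterial matrix gene (chromosome 6, 136872435 to 136875823), was at 1140, 1966, 1871 and 561 CPM contralateral against 397, 212, 1342 and 495 CPM ipsilateral in early replicates 1 and 2 and late replicates 1 and 2. It was higher contralaterally in 4 of 4 pools, by 1.28 (SE 0.27, edgeR adjusted p = 0.157), and by 1.41 without mixed members (adjusted p = 0.000535). Leaving out a pool moved the value from 0.73 (without early replicate 2) to 1.67. Mfsd2a, the capillary lipid carrier, was at 199, 161, 127 and 200 against 303, 258, 237 and 313 CPM, lower contralaterally in 4 of 4 pools (-0.70, SE 0.15, edgeR adjusted p = 0.157, and -0.65 with adjusted p = 0.115 without mixed members). The arterial and capillary makeup of each library was not compared between hemispheres.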

How the data were processed

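Single cells were measured by 10x Genomics 3′ RNA-seq in 24 libraries from 12 pools of 2 mice. The authors deposited filtered matrices of raw UMI counts per gene and barcode. Per the file headers, version 3.0.2 of the 10x software wrote them. The submitters' processing notes name Cell Ranger 3.1.0 and GRCm38 (mm10). Library totals ran from 5260446 to 30470621 UMIs over 541 to 10030 barcodes, and 54165 of 54235 features matched GENCODE M21 by ID.

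Cells were filtered and members gated as the report gives them. UMIs were summed over members per pool, with both hemispheres joined, or per library. The 12 pools were fitted with edgeR 4.0.16 (quasi-likelihood test, TMM, filterByExpr) on group and kit class with 5 residual degrees of freedom. The SE given with an edgeR difference was derived from its test, as the absolute log2 difference over the square root of the F statistic. Hemispheres were fitted with pool as a block on 8 libraries with 3 residual degrees of freedom. P-values were adjusted by Benjamini-Hochberg over all genes tested within a comparison, at 0.05, and the gate genes were left out. The change in members against that in other cells was tested with limma 3.58.1 on log2 CPM (prior count 2). Shares, arterial against venous ranges and reporter shares were tested by exact permutation. DESeq2 1.42.0 was an alternative (R 4.3.3, Python 3.11.15). Presumed doublets came from Scrublet in scanpy 1.11.5 at 0.8% per 1000 barcodes. Promoters came from RefSeq (GRCm38.p6).

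Kit class was read from barcodes that libraries share (1.31 shared per 1e6 pairs within class A, 0.261 within class B and 0.0240 between classes), since the labels give no kit per library. Single pairs of libraries ran from 0.789 to 1.75, 0.0360 to 0.565 and 0 to 0.437, so that pairs within B and between classes overlapped, and the assignment is an inference. Pools were replicates, so that p-values measure the spread between pools. Replicate numbers follow accession order and were not used as a pairing. Levels of single genes over all members of a pool are CPM scaled by the TMM factor of the pool. List levels, levels without mixed members, those of the arterial and venous ranges and those of other cells are per 1e6 UMIs without it. No level is divided by gene length, since the counts are of 3′ ends. Mouse genes with near-identical copies can share reads.

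The members, gene lists and tests were chosen with earlier results of these data known. Genes were named by rule: up to 10 called genes per comparison whose groups do not overlap, filled to 5 by unadjusted p, the 4 most abundant of each endothelial list, the 20 leading genes and the arterial, venous and capillary genes. Further list genes were named for their role after their values were seen, as were the genes called with and without mixed cells and those at 2 times the level of other cells. The fit was tested on simulated counts. Some genes that the rule would name are not reported here. Alternatives covered filters, gates, normalization, kit and flow cell terms, doublets, mixed cells and each pool left out.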

Additional observations from a re-analysis of the deposited data

Results flagged for a closer look

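The right library of motor cortex control replicate 1 held an endothelial share of 0.626%, far below the other 3 libraries of motor cortex controls at 4.56%, 4.61% and 5.33%. Its gap to the next library was 0.836 of the range of the 4. Among 30 groups of values looked at in this way, chance marks about 1 in 20. The flagged library and the left one of its pool (5.33%, 469 passing cells) are of kit class A, those at 4.56% and 4.61% of class B. Class A libraries of the other groups stood at 0.780% to 2.31%. The flagged library's pool also went against its label in its sex-linked transcripts.

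For 5 genes named here the early change differed between the regions by a test of the difference itself (edgeR, striatal minus motor cortex change on the log2 scale), over 12 pools. All 5 are genes of neurons. Rgs4, a G protein regulator, differed by 3.94 (adjusted p = 0.00755), from -1.44 in motor cortex to 2.50 in striatum. Atp2b2, a calcium pump, differed by 2.97, Grin2b, an NMDA receptor subunit, by 2.83, Cplx2, a synaptic protein, by 2.72 and Hpca, a calcium sensor, by 2.38, each with an edgeR adjusted p of 0.0341. Hpca had 0.96 with mixed cells left out, and the other 4 were too rare to test there. With a pool left out, Rgs4 was called in 11, Atp2b2 in 5, Grin2b and Cplx2 in 4 and Hpca in 3 of 12 fits. No gene was called for this difference without motor cortex control replicate 1 (the pool above), without the kit term, without presumed doublets or without mixed members. Between 89.2% and 95.3% of the UMIs of these genes lay in mixed members.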

How the results depend on the processing

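With no filter on low counts, the edgeR calls were 67, 63 and 24 in motor cortex (early against control, late against control, late against early) and 49, 46 and 40 in dorsal striatum. They were 176 and 68 for the regional difference of the early and of the late change, and 17 and 29 for the hemispheres of motor cortex and striatum. With mixed cells left out, the striatal early and late comparisons with control had 0 calls, the regional difference of the early change 0, the regions 19 and the striatal hemispheres 2 (Mgp and 1 more). Leaving out cells with 5 or more haemoglobin UMIs too gave 0, 0, 0 and 17 for the first 4 of these. Removing presumed doublets gave 0 for striatal early against control, 0 for striatal late against early, 15 for the regions, 0 for the regional difference of the early change, 8 for the motor cortex hemispheres and 0 for the striatal hemispheres. Without the kit term these were 0 and 0 for striatal early and late against control, 322 for the regions and 0 for the regional difference of the early change.

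The replicate number as a block gave 3 and 2 calls for motor cortex early and late against control, 1 for striatal early against control, 0 for striatal late against early, 29 and 5 for the regional differences of the early and late change and 604 for the regions. In that fit Vcam1 and Gm26870 passed early (2.04 and 4.72, edgeR adjusted p = 0.0323 and 0.0202) and Lars2 and Gm26870 late (3.14 and 4.66, adjusted p = 0.0282 for both). The numbers follow accession order and were not taken as a pairing. Over 15 pairs of groups the correlation of deviations ran from -0.0928 to 0.481, over 0.1 in 7, so that same-numbered pools of some groups deviated together. Replicate 1 of the control and late groups of a region shared a kit class and a flow cell. DESeq2 gave 6 for motor cortex late against control and 23 and 6 for the regional differences. A fit of counts per library had no term for pool, so that it took both hemispheres of the same mice as separate samples. It gave 2 for motor cortex late against control, 7 for striatal early against control and 2 for striatal late against early. With flow cell as a random block (limma-voom, correlation -0.155) these were 2 for motor cortex late against control, 0 for striatal late against early and 2 for the regional difference of the early change. A fit of each region alone gave 1 for motor cortex late against control and 18 and 2 for striatal early and late against control. The stricter cell filter gave 1 for striatal early against control, 1 for the regional difference of the early change and 8 for the striatal hemispheres. The stricter gate gave 0 for striatal late against early, 3 for the regional difference of the early change and 0 for the striatal hemispheres. The cause was not tested in any of these.

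With each pool left out in turn, calls ranged from 0 to 5 (without motor cortex early replicate 1), 0 to 2 and 0 to 2 in motor cortex. In striatum they ranged from 0 to 10 early (without early replicate 2), 0 to 10 late (without control replicate 1) and 0 to 3 late against early, with 0 early without control replicate 2 or early replicate 1, 0 late without control replicate 2 or late replicate 2, and 0 late against early without late replicate 2. They ranged from 314 (without dorsal striatum late replicate 2) to 657 for the regions. The regional difference of the early change had 0 calls without motor cortex control replicate 1, 62 without motor cortex late replicate 2 and 70 without motor cortex late replicate 1, and that of the late change 0 to 18 (without motor cortex late replicate 2). The ranges were 0 to 11 (without motor cortex early replicate 1) and 1 to 8 (without dorsal striatum late replicate 1) for the hemispheres and 21 to 23 for the arterial and venous genes. The regional difference in share ranged from -2.01 to -0.228. Thinning to 1000 UMIs left 14 of the arterial and venous genes called. Signs turned for Acta2 (striatal late against early, -0.78 without dorsal striatum late replicate 2, up to 5.50 without early replicate 1) and Apoe (motor cortex hemispheres, 0.06 without doublets). Among arterial and venous genes they turned for Vwf (0.83 thinned), Ch25h (-0.34 at 3 UMIs and -0.17 thinned), Prcp (0.02 thinned) and Spock2 (0.06 at 3 UMIs, and with a pool left out from -0.11 to 0.08, the latter without dorsal striatum late replicate 1, and 0.05 without dorsal striatum early replicate 2). Over the other settings, 162 values of arterial and venous genes kept direction and call, 3 newly passed and 10 no longer passed.

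Depth limits the rarest genes, since the smallest pool had 53 endothelial cells and the median standard error of a stage difference was 0.39 to 0.46 on the log2 scale.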

Other observations

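Capillary and nutrient genes lay to one side in the striatal stages. Of 8 capillary genes, 8 had negative differences from control both early (median -0.31) and late (median -0.42), with none called by edgeR, against medians of 0.00 and -0.01 for all genes. Without mixed members the medians were -0.15 and -0.27. The early and the late comparison use the same 2 control pools. In motor cortex 5 of 8 capillary genes were positive early (median 0.08) and 4 of 8 late (0.12).

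Among the genes at 2 times or more the level of other cells that were called higher in striatum, 6 went the other way in the other cells with a gap that passed (Kank4, Ism1, Tcf15, Lama4, Tfpi and AW112010). Of all 9482 genes, 630 (6.64%) were called for the gap, and since the 44 genes were chosen for their difference in members, nothing is read from the count of 6. Kank4 and Ism1 stood at -0.86 and -0.82 in the other cells, with the smallest adjusted p for the gap of the 6 (1.73 with limma adjusted p = 0.00161 and 1.62 with adjusted p = 0.00535). Kank4 had 33.6 ± 12.5 against 16.5 ± 6.50 CPM (SD, n = 6 pools each), and Ism1 60.0 against 32.8 CPM. Kank4 was called in 5 and Ism1 in 8 of 12 fits with a pool left out, and without mixed members they had 1.08 and 0.79 (edgeR adjusted p = 0.171 and 0.154). These genes were singled out after their values were seen.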
